A study of Mus musculus with 9 samples.

Results

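The 43 genes described here encode proteins that build ribosomes in the nucleolus, together with subunits and initiation factors of RNA polymerase I. They were chosen by name, as the entries of a deposited count table whose mouse Ensembl identifier maps to 43 listed symbols, and all 43 were found among the 49671 genes of the table. Total RNA was sequenced from CD3+ T cells of the spleen of female mice, in 3 groups of 3 libraries. In the first group, called inhibitor below, cells were stimulated for 48 hours with plate-bound anti-CD3 (1 µg/ml) and soluble anti-CD28 (10 µg/ml) in the presence of 2.5 µM IMD-0354, a small molecule that inhibits IKK-beta, a kinase upstream of NF-kB. In the second, called stimulated, cells had the same stimulation for 48 hours and no IMD-0354. In the third, called unstimulated, cells went straight into TRIzol after column enrichment. All mice were F1 hybrids of C57BL/6 mothers that carried a heterozygous deletion of Xist and castaneus fathers, a cross used as a model of skewed X inactivation. The labels name no vehicle for the stimulated cultures and no culture without stimulation, so stimulation, culture and time cannot be told apart. By the title given to it, the study concerns NF-kB, Xist RNA and the upkeep of X inactivation in activated T cells.

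As background, RNA polymerase I copies the ribosomal DNA repeats into a long precursor RNA, which nucleolar factors fold, modify and cut into the RNAs of the small and the large ribosomal subunit. Box C/D particles guide ribose methylation and box H/ACA particles guide pseudouridylation of that precursor, while further factors assemble each subunit with its ribosomal proteins. Resting T cells are small and make little protein, and activation through the antigen receptor is known to be followed by growth and by a larger nucleolus. The counts measure the messenger RNAs of the factors, not ribosomal RNA output or the number of ribosomes. In bulk samples, fewer cells of a type and less RNA per cell cannot be told apart.

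Total counts were 34009988 to 56221174 per library, and each of the 43 genes had at least 299 counts in each library. The unit of level is CPM, a count divided by the size of its library and corrected for composition. The T cell marker list (12 genes) summed to 2390 to 2510 CPM in the inhibitor libraries, 2170 to 2270 CPM in the stimulated libraries and 1980 to 3100 CPM in the unstimulated libraries, with no marker at 0 in any group. Of the 12 T cell markers, 2 were called higher and 6 lower in stimulated over unstimulated cells. In inhibitor over stimulated cells 4 were called higher and 1 lower, and in inhibitor over unstimulated cells 2 higher and 3 lower. Markers of other cells moved with the groups too. The 8 B cell markers summed to 145 to 147 CPM in the inhibitor, 67.9 to 77.5 CPM in the stimulated and 545 to 1450 CPM in the unstimulated libraries, and 8 of 8 were lower in stimulated than in unstimulated cells. The 10 myeloid and dendritic cell markers summed to 29.8 to 62.3 CPM in the inhibitor, 7.25 to 9.27 CPM in the stimulated (Clec9a at 0) and 965 to 2070 CPM in the unstimulated libraries. The 5 NK cell markers summed to 33.8 to 42.6 CPM in the inhibitor, 26.0 to 29.9 CPM in the stimulated and 199 to 248 CPM in the unstimulated libraries. In inhibitor over stimulated cells, 4 of 8 B cell, 7 of 10 myeloid and dendritic cell and 1 of 5 NK cell markers were called higher, and 3 of the NK cell markers were called lower. The erythroid and platelet markers summed to 0.436 to 7.29 CPM in the inhibitor (Gp9 at 0), 1.55 to 4.77 CPM in the stimulated (Gp9 at 0) and 31.0 to 572 CPM in the unstimulated libraries. The part of these cells in the results below was not tested. Inhibitor library 1 stood apart, where 30106 genes had a count, against 20547 to 23223 genes per library elsewhere. Calls of the 43 genes in inhibitor over stimulated cells that were lost without it are named below. Values without it are not given for every gene. Exons of 17 of the 43 genes, among them Nop56, Dkc1, Nhp2, Gnl3, Tsr1, Bop1 and Polr1a, overlap a gene on the opposite strand, and as the strand setting of the counting is not given in the sources used here, the reads of such pairs cannot be told apart.

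Nearly the whole set of genes was higher after stimulation. Of the 43, 42 rose in stimulated over unstimulated cells and 0 fell, by edgeR's quasi-likelihood test with Benjamini-Hochberg adjustment over 18374 genes and a threshold of 0.05 (called below), where 32.0% of all genes tested were called higher and 34.0% lower. The median log2 fold change was 1.25 over the 43 genes and -0.05 over all genes tested, and 33 of the 43 were at least 2-fold higher. For 42 genes every stimulated library lay above every unstimulated library, which held for 35.4% of all genes tested. The exception was Ubtf. Together the 43 genes took 0.72%, 0.732% and 0.687% of the counts in stimulated libraries 1 to 3 and 0.328%, 0.326% and 0.296% in the unstimulated libraries.

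With the inhibitor the genes split. Of the 43, 18 fell and 4 rose in inhibitor over stimulated cells, and 21 were not called, beside 22.8% of all genes tested called lower and 21.7% called higher. The median log2 fold change was -0.22 over the 43 genes and 0.03 over all genes, with values from -0.98 (Nhp2) to 0.49 (Tsr1). Every inhibitor library lay below every stimulated library for 20 genes (29.4% of all genes tested) and above for 4 (28.0%), and the groups overlapped for 19. The number that fell depended on scaling: with upper-quartile scaling, which moved the median of all genes to 0.16, 10 fell and 6 rose, with a median of -0.09 over the 43. The members' median lay 0.25 below that of all genes with the scaling used here and 0.26 below it with upper-quartile scaling. Called in each of the 15 alternative settings were 9 of the 18 that fell, namely Nop56, Dkc1, Nhp2, Rrp12, Noc4l, Rrp1b, Bop1, Noc2l and Nip7, and 1 of the 4 that rose, Tsr1. Without inhibitor library 1, 15 fell and 3 rose, with a median of -0.11.

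Inhibitor-treated cells were above unstimulated cells for nearly the whole set. In inhibitor over unstimulated cells 42 of the 43 genes rose and 0 fell, beside 26.3% of all genes tested called higher and 26.1% lower, and the median log2 fold change was 1.08, with values from -0.08 (Ubtf) to 1.84 (Npm1) and 25 genes at least 2-fold higher. By role, these medians ran from 0.56 for RNA polymerase I to 1.40 for the multifunctional nucleolar proteins. Every inhibitor library lay above every unstimulated library for 42 genes, which held for 29.4% of all genes tested. The smallest called value was that of Ddx10 (0.28 ± 0.09, adjusted p = 0.018), which was not called in 6 of 15 alternative settings, among them those without unstimulated library 2 or 3 and without inhibitor library 3. The 3 comparisons share libraries, so these counts are not independent of each other.

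**Figure D1:**
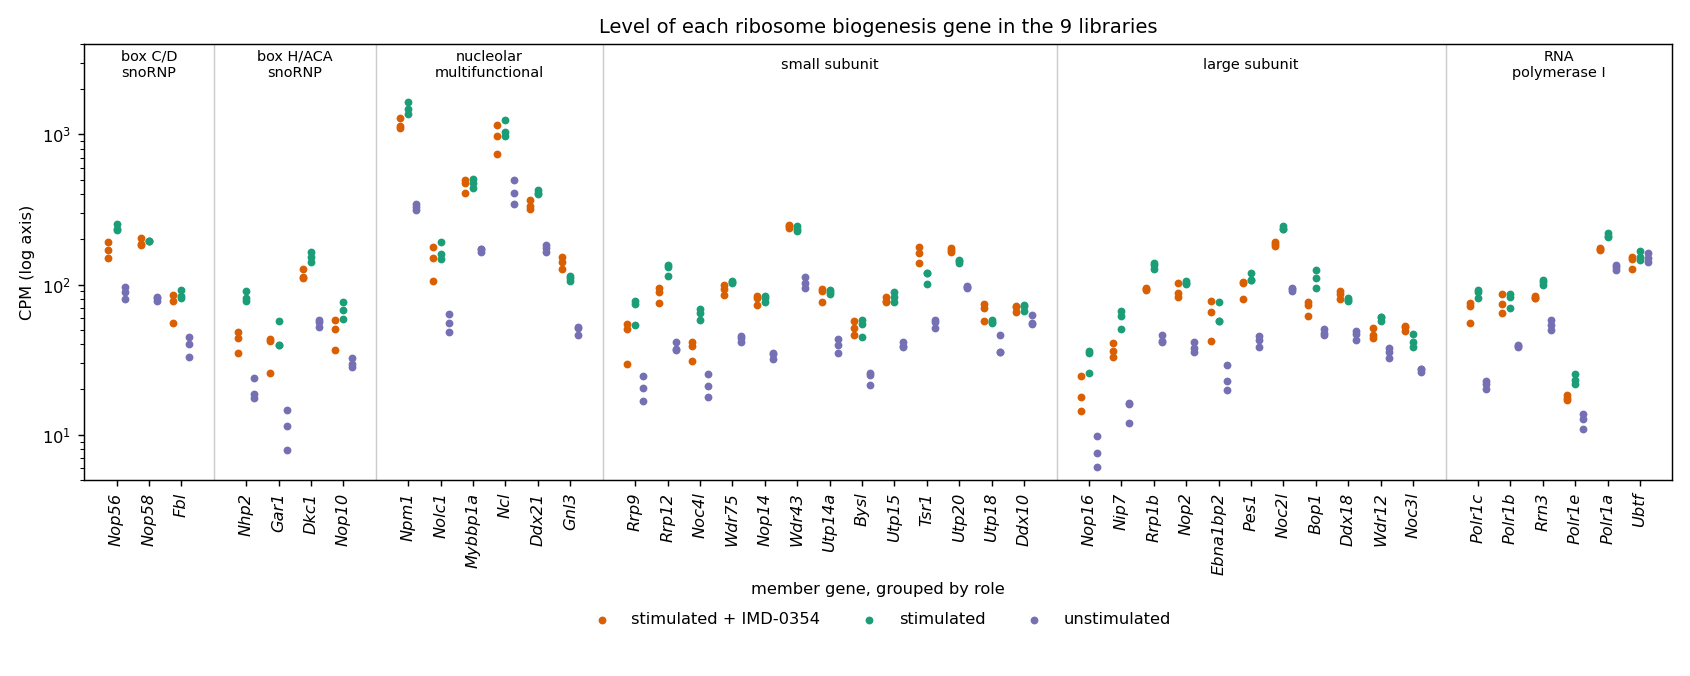
Level of the 43 genes in the 9 libraries, in CPM on a log axis, with 1 point per library and the genes grouped by role. Inhibitor and stimulated points lie above the unstimulated points for 42 genes, and the 3 groups overlap at Ubtf.

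**Figure D2:**
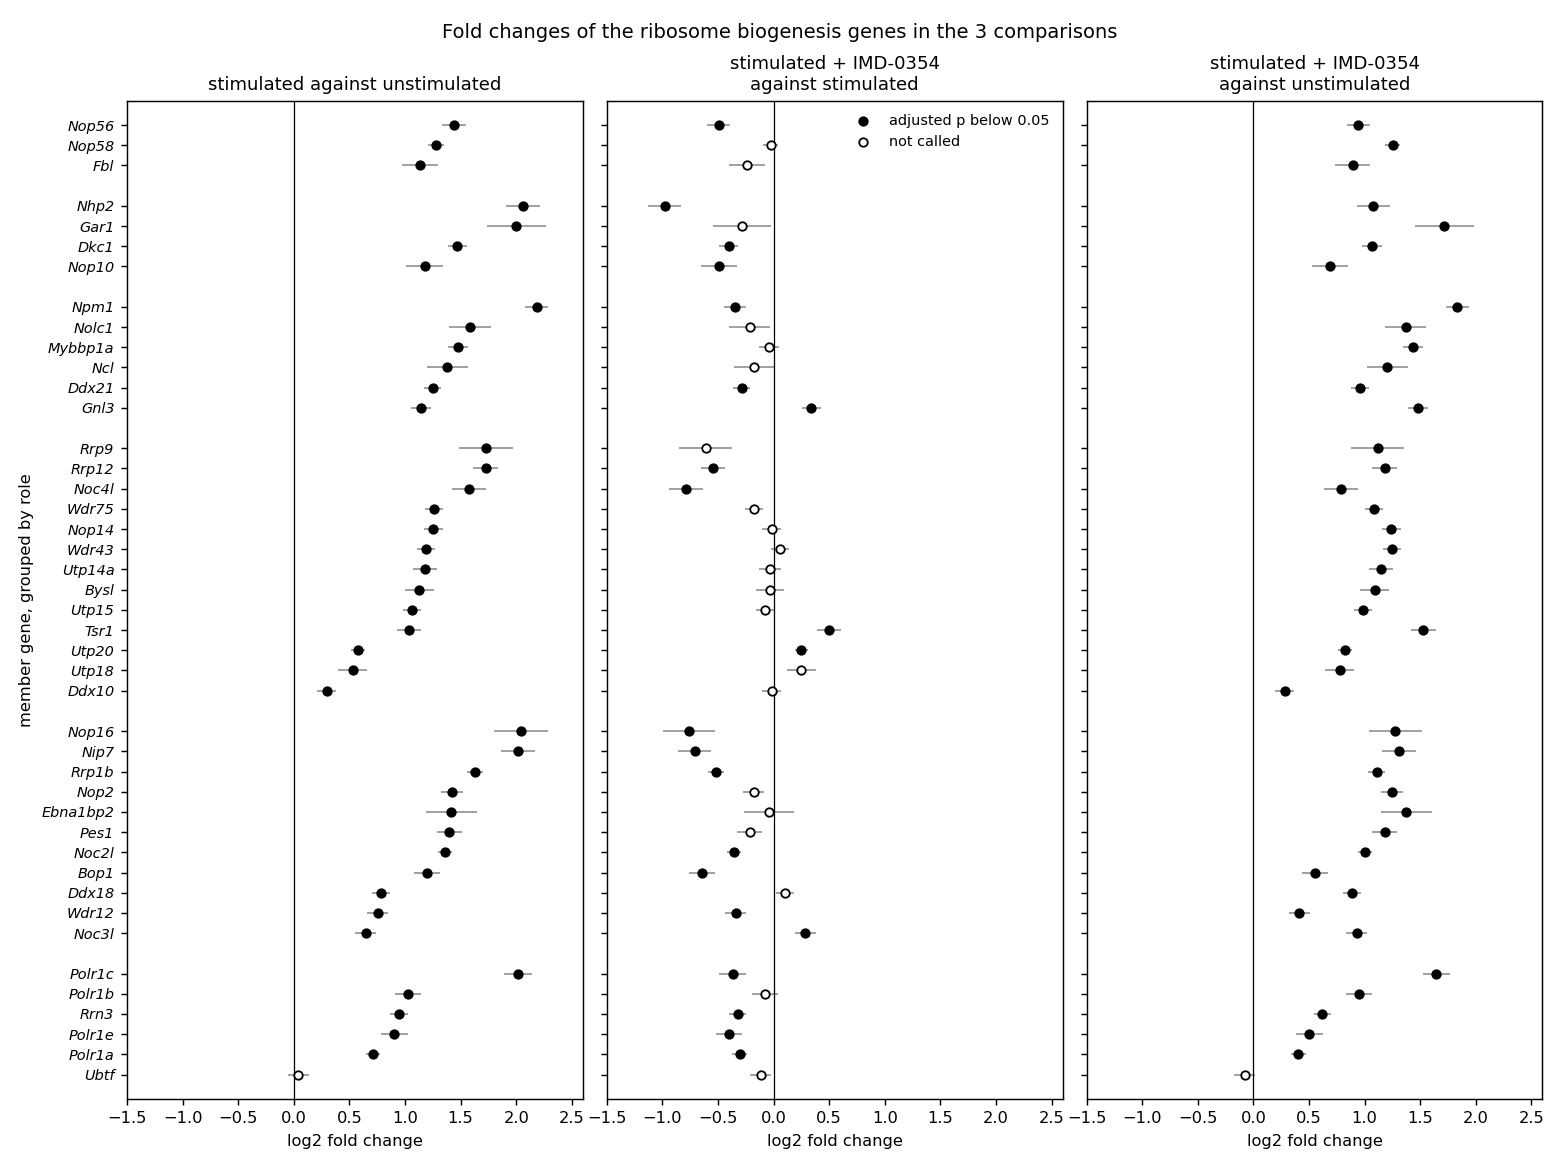
Log2 fold change of each gene in the 3 comparisons, with bars of 1 approximate SE and filled points for genes called at an adjusted p below 0.05. Filled points stand right of 0 for 42 genes in both comparisons with unstimulated cells, while inhibitor against stimulated shows 18 filled points left of 0 and 4 right of it.

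The genes of 3 core proteins of the box C/D particles all rose with stimulation, beside 32.0% of all genes tested. Nop56 (chr2:130274430-130279313, plus strand, in mm10 as all positions below), a scaffold of these particles, had 149, 169 and 192 CPM in the inhibitor libraries, 232, 253 and 235 in the stimulated ones and 95.9, 89.5 and 79.9 in the unstimulated ones. The 3 groups did not overlap for Nop56, and inhibitor libraries lay between the others. Its log2 fold change, given here with an approximate SE, was 1.44 ± 0.11, adjusted p = 1.5e-06 in stimulated over unstimulated cells and -0.49 ± 0.10, adjusted p = 0.0035 in inhibitor over stimulated cells. Nop58 (chr1:59684971-59719044, plus strand), the partner scaffold, had 187, 183 and 206 CPM with the inhibitor, 194, 196 and 196 with stimulation alone and 81.6, 82.2 and 77.8 without stimulation. All cultured libraries of Nop58 stood above the unstimulated ones, and the inhibitor range enclosed the stimulated one, with 1.28 ± 0.07, adjusted p = 2.4e-07 for stimulation and -0.03 ± 0.07, adjusted p = 0.78 for the inhibitor. Fbl (chr7:28169710-28179269, plus strand), fibrillarin, the methyltransferase of the particle, had 55.4, 77.6 and 85.1 CPM in the inhibitor libraries, 81.8, 91.97 and 83.7 in the stimulated ones and 44.6, 39.95 and 33.1 in the unstimulated ones. Fbl rose with stimulation (1.13 ± 0.16, adjusted p = 0.00014), while inhibitor and stimulated libraries overlapped through inhibitor library 3 (-0.24 ± 0.16, adjusted p = 0.25). Of these 3 genes, 1 fell with the inhibitor, beside 22.8% of all genes tested. The difference between Nop56 and the other genes was not tested.

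All 4 genes for core proteins of the box H/ACA particles rose with stimulation, beside 32.0% of all genes tested. With the inhibitor 3 of the 4 fell, beside 22.8% of all genes tested. The median log2 fold change of the 4 was 1.74 in stimulated over unstimulated cells, the highest of the 6 role groups. In inhibitor over stimulated cells it was -0.45, the lowest of the 6. Nhp2 (chr11:51619735-51623714, plus strand), an RNA-binding core protein, had 34.8, 43.8 and 48.4 CPM in the inhibitor libraries, 90.5, 81.6 and 78.2 in the stimulated ones and 18.6, 23.9 and 17.6 in the unstimulated ones. No group overlapped another for Nhp2: it was 4.16-fold higher in stimulated than unstimulated cells (log2 2.06 ± 0.15, adjusted p = 1.7e-06) and 1.97-fold lower in inhibitor than stimulated cells (log2 -0.98 ± 0.15, adjusted p = 0.00053). This was the most negative inhibitor difference of the 43 genes.

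Dkc1 (chrX:75095854-75109777, plus strand), dyskerin, the pseudouridine synthase and also a component of telomerase, is 1 of 2 X-linked genes in the set. Its level was 112, 110.0 and 126 CPM with the inhibitor, 166, 153 and 142 with stimulation alone and 57.7, 56.1 and 52.5 without stimulation. The 3 groups were again separate, with 1.47 ± 0.09, adjusted p = 3.9e-07 for stimulation and -0.40 ± 0.09, adjusted p = 0.0037 for the inhibitor. Nop10 (chr2:112261926-112263269, plus strand), the smallest core protein, had 36.4, 50.2 and 58.1 CPM in the inhibitor libraries, 76.1, 59.1 and 68.1 in the stimulated ones and 32.2, 29.3 and 28.4 in the unstimulated ones. Nop10 rose with stimulation (1.18 ± 0.16, adjusted p = 0.00012), and its fall with the inhibitor (-0.49 ± 0.16, adjusted p = 0.032) was not called in 6 of 15 alternative settings, among them those without inhibitor library 1 or 2 and without stimulated library 1 or 3. Gar1 (chr3:129824912-129831396, minus strand), the last to join the particle, had 25.9, 42.4 and 43.7 CPM with the inhibitor, 39.8, 57.2 and 39.5 with stimulation alone and 14.7, 11.5 and 7.97 without stimulation. The scatter of Gar1 within groups was wide, and it rose with stimulation (2.00 ± 0.27, adjusted p = 9.4e-05) with no call for the inhibitor (-0.28 ± 0.26, adjusted p = 0.4).

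Genes of the multifunctional nucleolar proteins rose with stimulation in 6 of 6, beside 32.0% of all genes tested. With the inhibitor 2 of 6 fell and 1 rose. Over all genes tested, 22.8% fell and 21.7% rose with the inhibitor, shares these small counts were not tested against. Npm1 (chr11:33152287-33163206, minus strand), nucleophosmin, a nucleolar chaperone of ribosomal proteins and histones, had 1104, 1142 and 1283 CPM in the inhibitor libraries, 1652, 1485 and 1357 in the stimulated ones and 344, 330.3 and 314 in the unstimulated ones. It averaged 1176 ± 94.3 CPM in inhibitor, 1498 ± 148 CPM in stimulated and 329.6 ± 15.03 CPM in unstimulated cells (SD, n = 3 each). Npm1 has processed pseudogenes, so its count is uncertain. No groups overlapped for Npm1, whose stimulation difference was the largest of the 43 genes at 4.54-fold (log2 2.18 ± 0.10, adjusted p = 9.6e-08). The decrease with the inhibitor (-0.35 ± 0.10, adjusted p = 0.016) was lost under upper-quartile scaling, without stimulated library 1 and without inhibitor library 2. Ncl (chr1:86344719-86359400, minus strand), nucleolin, an RNA-binding protein of the dense nucleolar regions, had 741, 976 and 1162 CPM with the inhibitor, 1031, 1242 and 981 with stimulation alone and 498, 406 and 345 without stimulation. Stimulated libraries were all above unstimulated ones for Ncl (1.38 ± 0.18, adjusted p = 8.5e-05), whereas inhibitor library 3 lay within the stimulated range and inhibitor libraries 1 and 2 below it (-0.18 ± 0.18, adjusted p = 0.46).

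Nolc1 (chr19:46075863-46085530, plus strand), a chaperone of snoRNA particles, had 105, 149 and 178 CPM in the inhibitor libraries, 147, 193 and 161 in the stimulated ones and 63.6, 55.5 and 48.1 in the unstimulated ones. It rose with stimulation (1.58 ± 0.19, adjusted p = 4.0e-05) and, with inhibitor library 1 the lowest of the cultured libraries, was not called for the inhibitor (-0.21 ± 0.18, adjusted p = 0.37). Mybbp1a (chr11:72441355-72451768, plus strand), a Myb-binding protein of the nucleolus, had 407, 474 and 497 CPM with the inhibitor, 439.7, 504 and 476 with stimulation alone and 166, 173 and 171 without stimulation. Inhibitor and stimulated libraries overlapped for it, with 1.48 ± 0.09, adjusted p = 5.0e-07 for stimulation and -0.04 ± 0.09, adjusted p = 0.74 for the inhibitor. Ddx21 (chr10:62580251-62602281, minus strand), an RNA helicase of ribosomal RNA transcription and processing, had 319.8, 332 and 363 CPM in the inhibitor libraries, 408, 429 and 403 in the stimulated ones and 185, 164 and 174 in the unstimulated ones. All 3 groups were separate for Ddx21 (1.25 ± 0.08, adjusted p = 5.6e-07 for stimulation, -0.29 ± 0.08, adjusted p = 0.013 for the inhibitor), but its decrease was not called under upper-quartile scaling or without inhibitor library 2.

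Gnl3 (chr14:31012433-31019152, minus strand), nucleostemin, a nucleolar GTPase known from proliferating and stem cells, went the other way. Its level was 126, 141 and 152 CPM in the inhibitor libraries, 111, 115 and 105 in the stimulated ones and 51.8, 51.7 and 46.3 in the unstimulated ones. Inhibitor libraries were the highest and unstimulated libraries the lowest, with no overlap, at 1.14 ± 0.09, adjusted p = 2.2e-06 for stimulation and 0.34 ± 0.09, adjusted p = 0.01 for the inhibitor over stimulation alone. The second call did not hold without stimulated library 3 (adjusted p = 0.052).

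Among the 13 small-subunit factors, 13 rose with stimulation, beside 32.0% of all genes tested. The median log2 fold change of the 13 was 1.18. With the inhibitor 2 rose and 2 fell, with a median of -0.03. Both inhibitor counts were below the shares of all genes tested, of which 21.7% rose and 22.8% fell. Tsr1 (chr11:74898071-74909342, plus strand), a late small-subunit maturation factor, had 139, 162 and 177 CPM in the inhibitor libraries, 100.2, 119 and 120.0 in the stimulated ones and 57.9, 51.02 and 56.5 in the unstimulated ones. Each inhibitor library was above each stimulated library, and those above each unstimulated library. The log2 fold change of Tsr1 was 1.03 ± 0.11, adjusted p = 1.8e-05 for stimulation and 0.49 ± 0.11, adjusted p = 0.0043 for the inhibitor over stimulated cells, the most positive inhibitor difference of the set. Utp20 (chr10:88746607-88826804, minus strand), a large scaffold protein of the small-subunit processome, had 175, 165 and 169 CPM with the inhibitor, 146, 139.6 and 143 with stimulation alone and 97.2, 96.01 and 94.5 without stimulation. Its libraries were tightly grouped in the same order, with 0.57 ± 0.06, adjusted p = 2.1e-05 for stimulation and 0.25 ± 0.06, adjusted p = 0.0083 for the inhibitor, a call lost without stimulated library 2 (adjusted p = 0.0587) and with no filter on low counts (adjusted p = 0.19).

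The 2 small-subunit factors that fell with the inhibitor were Noc4l and Rrp12. Noc4l (chr5:110648418-110653417, minus strand), which works in a complex with Nop14 in early small-subunit assembly, had 31.1, 38.7 and 41.2 CPM in the inhibitor libraries, 57.8, 69.1 and 64.6 in the stimulated ones and 21.1, 25.4 and 17.8 in the unstimulated ones. Noc4l was 2.98-fold higher in stimulated than unstimulated cells (log2 1.57 ± 0.15, adjusted p = 1.0e-05) and 1.73-fold lower in inhibitor than stimulated cells (log2 -0.79 ± 0.15, adjusted p = 0.002), with separate groups. Its partner Nop14 (chr5:34638536-34660148, minus strand) had 73.1, 84.1 and 81.8 CPM with the inhibitor, 80.9, 84.2 and 76.5 with stimulation alone and 34.7, 31.8 and 34.8 without stimulation. Nop14 rose with stimulation (1.25 ± 0.09, adjusted p = 9.5e-07), but its inhibitor and stimulated libraries overlapped (-0.02 ± 0.08, adjusted p = 0.9). Rrp12 (chr19:41862851-41896173, minus strand), known in yeast for the export of pre-ribosomes, had 75.8, 89.5 and 95.2 CPM in the inhibitor libraries, 113, 136 and 131 in the stimulated ones and 41.5, 37.01 and 36.5 in the unstimulated ones. It fell in inhibitor cells without overlap (-0.54 ± 0.11, adjusted p = 0.0024) after 1.72 ± 0.11, adjusted p = 6.0e-07 in stimulated over unstimulated cells. Rrp9 (chr9:106475963-106485424, plus strand), a protein of the U3 snoRNA particle, had 29.4, 50.7 and 54.7 CPM with the inhibitor, 53.9, 77.5 and 74.4 with stimulation alone and 24.8, 20.6 and 16.8 without stimulation. Inhibitor library 1 was the lowest cultured library for Rrp9, and the inhibitor difference of Rrp9 (-0.61 ± 0.24, adjusted p = 0.06) was not called. DESeq2 and limma voom did call it (adjusted p = 0.019 and 0.041), as did the fit without stimulated library 1 or without inhibitor library 3. It was called in 5 of 15 settings, with log2 fold changes of -0.78 to -0.38 over the 15.

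The other small-subunit factors rose with stimulation and were not called for the inhibitor. Wdr43 (chr17:71615895-71659031, plus strand), of the subcomplex that joins ribosomal DNA transcription to processing, had 245, 239 and 249.5 CPM in the inhibitor libraries, 244, 235 and 226 in the stimulated ones and 112, 95.3 and 102 in the unstimulated ones. Wdr75 (chr1:45795166-45823619, plus strand), of the same subcomplex, had 85.2, 92.8 and 98.8 CPM with the inhibitor, 106, 105 and 103 with stimulation alone and 45.1, 41.5 and 44.02 without stimulation. Utp15 (chr13:98246845-98263041, minus strand), a further member of it, had 76.8, 77.5 and 82.02 CPM in the inhibitor libraries, 88.99, 82.9 and 76.9 in the stimulated ones and 38.4, 39.1 and 41.6 in the unstimulated ones. Stimulated libraries stood well above unstimulated ones in all 3, with log2 fold changes of 1.19 ± 0.08, 1.26 ± 0.08 and 1.06 ± 0.08. Inhibitor differences were 0.06 (adjusted p = 0.58), -0.18 (adjusted p = 0.09) and -0.07 (adjusted p = 0.49), and for Wdr75 the inhibitor libraries all lay below the stimulated ones.

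Utp14a (chrX:48256862-48282453, plus strand), a processome factor and the other X-linked gene of the set, had 76.6, 90.7 and 93.7 CPM in the inhibitor libraries, 88.7, 91.7 and 86.5 in the stimulated ones and 43.2, 39.7 and 34.96 in the unstimulated ones. It was higher in every stimulated than in every unstimulated library (1.18 ± 0.10, adjusted p = 5.4e-06), and inhibitor and stimulated libraries overlapped (-0.03 ± 0.10, adjusted p = 0.82). The counts do not separate the alleles of either X-linked gene. Bysl (chr17:47599331-47611492, minus strand), bystin, an assembly factor of the small subunit, had 45.8, 51.02 and 56.9 CPM with the inhibitor, 44.8, 54.6 and 57.99 with stimulation alone and 25.7, 24.99 and 21.4 without stimulation. Bysl rose with stimulation (1.13 ± 0.13, adjusted p = 3.2e-05) and overlapped between cultured groups (-0.03 ± 0.13, adjusted p = 0.85).

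Utp18 (chr11:93859243-93885766, minus strand), whose yeast counterpart brings the exosome's helicase to the processome, had 56.96, 69.9 and 74.5 CPM in the inhibitor libraries, 58.1, 56.3 and 55.3 in the stimulated ones and 46.2, 35.5 and 35.8 in the unstimulated ones. Its stimulation difference was among the smallest of the set (0.53 ± 0.13, adjusted p = 0.0046), and inhibitor libraries 2 and 3 lay above the stimulated range while library 1 lay within it (0.25 ± 0.13, adjusted p = 0.15). Ddx10 (chr9:53098635-53248053, minus strand), a helicase of early processing in yeast, had 71.2, 66 and 72.5 CPM with the inhibitor, 73.4, 72.4 and 66.3 with stimulation alone and 62.2, 54.7 and 55.7 without stimulation. The lowest stimulated library of Ddx10 was above the highest unstimulated one, and its call for stimulation (0.30 ± 0.09, adjusted p = 0.011) was lost with upper-quartile scaling and with a filter that kept genes averaging 10 CPM or more. No difference was called for the inhibitor (-0.02 ± 0.08, adjusted p = 0.89).

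All 11 large-subunit factors rose with stimulation (median log2 fold change 1.40), and 6 fell and 1 rose with the inhibitor (median -0.34). Of all genes tested, 32.0% rose with stimulation, and 22.8% fell and 21.7% rose with the inhibitor. The genes of the PeBoW complex, in which Pes1, Bop1 and Wdr12 process the precursor of the large subunit, all rose with stimulation. Bop1 (chr15:76452989-76477277, minus strand) had 61.3, 73.6 and 77.03 CPM in the inhibitor libraries, 95.4, 111 and 125 in the stimulated ones and 50.6, 46.2 and 47.9 in the unstimulated ones. Its groups were separate, with 1.19 ± 0.12, adjusted p = 1.1e-05 for stimulation and -0.64 ± 0.12, adjusted p = 0.0015 for the inhibitor. Wdr12 (chr1:60069785-60098645, minus strand) had 45.8, 44.2 and 51.1 CPM with the inhibitor, 57.1, 61.1 and 60.5 with stimulation alone and 35.5, 32.6 and 38 without stimulation. Wdr12 fell with the inhibitor too (-0.34 ± 0.09, adjusted p = 0.014), a call lost under upper-quartile scaling, without stimulated library 2 and without inhibitor library 2. Pes1 (chr11:3963975-3980004, plus strand) had 80.4, 103 and 104 CPM in the inhibitor libraries, 108, 119 and 107 in the stimulated ones and 45.5, 42.9 and 38.2 in the unstimulated ones. The inhibitor libraries were all below the stimulated ones for Pes1, library 1 most of all, but the difference was not called (-0.22 ± 0.11, adjusted p = 0.14).

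Nop16 (chr13:54584185-54590090, minus strand), a nucleolar protein of large-subunit assembly, had 14.3, 17.8 and 24.6 CPM in the inhibitor libraries, 25.7, 34.8 and 35.8 in the stimulated ones and 9.86, 7.54 and 6.06 in the unstimulated ones. The highest inhibitor library was just below the lowest stimulated library. Nop16 was 4.11-fold higher in stimulated than unstimulated cells (log2 2.04 ± 0.24, adjusted p = 4.0e-05), and its decrease with the inhibitor (-0.76 ± 0.23, adjusted p = 0.023) was not called without stimulated library 2 or 3 or without inhibitor library 1 or 2. Nip7 (chr8:107056877-107060931, plus strand), an assembly factor that binds ribosomal RNA, had 32.7, 36.1 and 40.6 CPM with the inhibitor, 66.8, 50.8 and 61.4 with stimulation alone and 15.98, 12.04 and 16.2 without stimulation. Its groups did not overlap, at 2.02 ± 0.16, adjusted p = 2.0e-06 for stimulation and -0.71 ± 0.15, adjusted p = 0.0035 for the inhibitor. Rrp1b (chr17:32036100-32062865, plus strand), a nucleolar protein of large-subunit processing, had 91.9, 93.2 and 94.7 CPM in the inhibitor libraries, 127, 135 and 139.9 in the stimulated ones and 41.6, 45.8 and 42.3 in the unstimulated ones. Within each group the libraries of Rrp1b were close to each other, and the groups were separate (1.63 ± 0.07, adjusted p = 8.1e-08 for stimulation, -0.52 ± 0.07, adjusted p = 0.00031 for the inhibitor).

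Noc2l and Noc3l, proteins whose yeast counterparts work as a pair in large-subunit maturation, were called in opposite directions for the inhibitor. Noc2l (chr4:156236010-156247616, plus strand) had 179.7, 191 and 186 CPM in the inhibitor libraries, 236, 234 and 245 in the stimulated ones and 93.5, 94.6 and 89.99 in the unstimulated ones. Noc3l (chr19:38788128-38819237, minus strand) had 52.6, 49.1 and 52.1 CPM with the inhibitor, 46.5, 41.6 and 38.1 with stimulation alone and 27.4, 26.1 and 27.2 without stimulation. Both rose with stimulation without overlap (1.36 ± 0.06 and 0.64 ± 0.10), and the inhibitor libraries were all below the stimulated ones for Noc2l (-0.36 ± 0.06, adjusted p = 0.0013) and all above them for Noc3l (0.29 ± 0.10, adjusted p = 0.033). The call for Noc3l did not hold when any 1 inhibitor library was left out, without stimulated library 2 or 3, or with no filter on low counts.

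Nop2 (chr6:125131909-125144753, plus strand), an RNA cytosine methyltransferase, had 83.2, 87.2 and 102 CPM in the inhibitor libraries, 100.3, 106 and 102 in the stimulated ones and 41.7, 37.9 and 35.6 in the unstimulated ones. Ebna1bp2 (chr4:118620799-118627776, plus strand), an assembly factor of the large subunit, had 42.3, 65.6 and 77.8 CPM with the inhibitor, 56.9, 76.9 and 57.2 with stimulation alone and 28.99, 22.9 and 19.8 without stimulation. Ddx18 (chr1:121553835-121567989, minus strand), a helicase, had 79.7, 85.95 and 89.9 CPM in the inhibitor libraries, 81.1, 78.6 and 77.9 in the stimulated ones and 46.6, 42.8 and 48.9 in the unstimulated ones. All 3 rose with stimulation (1.42 ± 0.10, 1.41 ± 0.23 and 0.78 ± 0.08) and overlapped between inhibitor and stimulated libraries. Their inhibitor differences were -0.18 (adjusted p = 0.16, and -0.28 with adjusted p = 0.048 without inhibitor library 3), -0.04 (adjusted p = 0.9) and 0.10 (adjusted p = 0.32).

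RNA polymerase I genes had the lowest median log2 fold change of the 6 role groups for stimulation, 0.92. Of these genes 5 of 6 rose with stimulation, beside 32.0% of all genes tested. With the inhibitor 4 of 6 fell (median -0.32), beside 22.8% of all genes tested. Differences between roles were not tested. Polr1c (chr17:46243920-46248054, minus strand), an assembly subunit shared with RNA polymerase III, had 55.6, 71.99 and 75.4 CPM in the inhibitor libraries, 80.8, 89.2 and 92.04 in the stimulated ones and 22.9, 21.8 and 20.2 in the unstimulated ones. It was 4.04-fold higher in stimulated than unstimulated cells (log2 2.01 ± 0.12, adjusted p = 4.8e-07) with separate groups. Its decrease with the inhibitor (-0.37 ± 0.12, adjusted p = 0.029) was not called under upper-quartile scaling, without inhibitor library 1, or without stimulated library 2 or 3. Polr1a (chr6:71909053-71984935, plus strand), the largest catalytic subunit, had 171, 174 and 172 CPM with the inhibitor, 209.5, 221 and 209 with stimulation alone and 135, 124 and 131 without stimulation. Its libraries were close within groups, and the order inhibitor between stimulated and unstimulated held in every library (0.71 ± 0.07, adjusted p = 6.7e-06 for stimulation, -0.31 ± 0.06, adjusted p = 0.0036 for the inhibitor). Polr1b (chr2:129100995-129126594, plus strand), the partner of Polr1a at the active centre, had 65.1, 73.9 and 86.3 CPM in the inhibitor libraries, 69.3, 85.9 and 83.1 in the stimulated ones and 39.3, 38.8 and 38.6 in the unstimulated ones. Polr1b rose with stimulation (1.03 ± 0.12, adjusted p = 3.1e-05) and overlapped between inhibitor and stimulated cells (-0.08 ± 0.12, adjusted p = 0.61).

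Polr1e (chr4:45018583-45036565, plus strand), a subunit of the enzyme's peripheral heterodimer, had 18.5, 17.7 and 16.9 CPM in the inhibitor libraries, 22.99, 21.8 and 25.2 in the stimulated ones and 12.8, 10.9 and 13.7 in the unstimulated ones. Polr1e was separate in all groups (0.90 ± 0.12, adjusted p = 9.0e-05 for stimulation, -0.40 ± 0.12, adjusted p = 0.021 for the inhibitor), but its decrease was lost in 5 of 15 settings, among them those without inhibitor library 2 or 3 and without stimulated library 3. Rrn3 (chr16:13780708-13814839, plus strand), the factor that brings the polymerase to its promoter, had 81.3, 81.9 and 84.5 CPM with the inhibitor, 104, 99.5 and 107 with stimulation alone and 53.5, 49.5 and 58.1 without stimulation. Rrn3 followed the same order without overlap (0.94 ± 0.08, adjusted p = 3.6e-06 and -0.32 ± 0.08, adjusted p = 0.0073), and its decrease was lost under upper-quartile scaling, as was that of Polr1a. Ubtf (chr11:102304560-102319742, minus strand), which binds along active ribosomal DNA, had 127, 149 and 153 CPM in the inhibitor libraries, 153, 166 and 146 in the stimulated ones and 161, 141 and 150.0 in the unstimulated ones. The 9 libraries of Ubtf overlapped across groups, with a log2 fold change of 0.04 ± 0.09, adjusted p = 0.71 for stimulation and -0.12 ± 0.09, adjusted p = 0.33 for the inhibitor. It was the lone gene of the 43 not called in any comparison.

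Per kilobase of exon, Npm1 was highest in each group, at 441 ± 35.4 CPM per kb in inhibitor, 562 ± 55.5 in stimulated and 124 ± 5.64 in unstimulated cells (SD, n = 3 each). Ncl was next, at 94.2 ± 20.7, 106 ± 13.6 and 40.9 ± 7.56 CPM per kb in the same groups. Per kilobase, Npm1 was thus above Ncl beyond the spread in every group, with lengths of 2665 bases for Npm1 and 10188 bases for Ncl. Not divided by length, Ncl was higher than Npm1 in unstimulated cells, at 416 ± 77.0 CPM against 329.6 ± 15.03 CPM. The order of these genes therefore depends on the lengths used. Wdr12 was among the lowest, at 3.94 ± 0.301, 4.98 ± 0.178 and 2.96 ± 0.227 CPM per kb, beside Polr1e at 4.54 ± 0.195, 5.99 ± 0.451 and 3.2 ± 0.367. Lengths were those of all annotated exons together, which for some genes include retained introns.

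Fold changes were also set beside gene length. Spearman's rho between log2 fold change and exon length over the 43 genes was 0.325 for inhibitor over stimulated cells and -0.426 for stimulated over unstimulated cells, given as a description of genes that share 9 libraries. Over 13680 protein-coding genes tested, rho was 0.154 and -0.151 in these comparisons. Among the 10 shortest members (1109 to 2772 bases) 6 fell and 0 rose with the inhibitor, and among the 10 longest (5805 to 11955 bases) 3 fell and 2 rose. The counts of the 10 longest were near the shares of all genes tested, of which 22.8% fell and 21.7% rose. With GC content, rho over the 43 genes was -0.43 for the inhibitor and 0.346 for stimulation, against -0.0701 and 0.0258 over protein-coding genes. Over 140 other ribosome biogenesis genes, rho with exon length was 0.133 for the inhibitor and -0.263 for stimulation, and with GC content 0.0101 and -0.021.

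**Figure D3:**
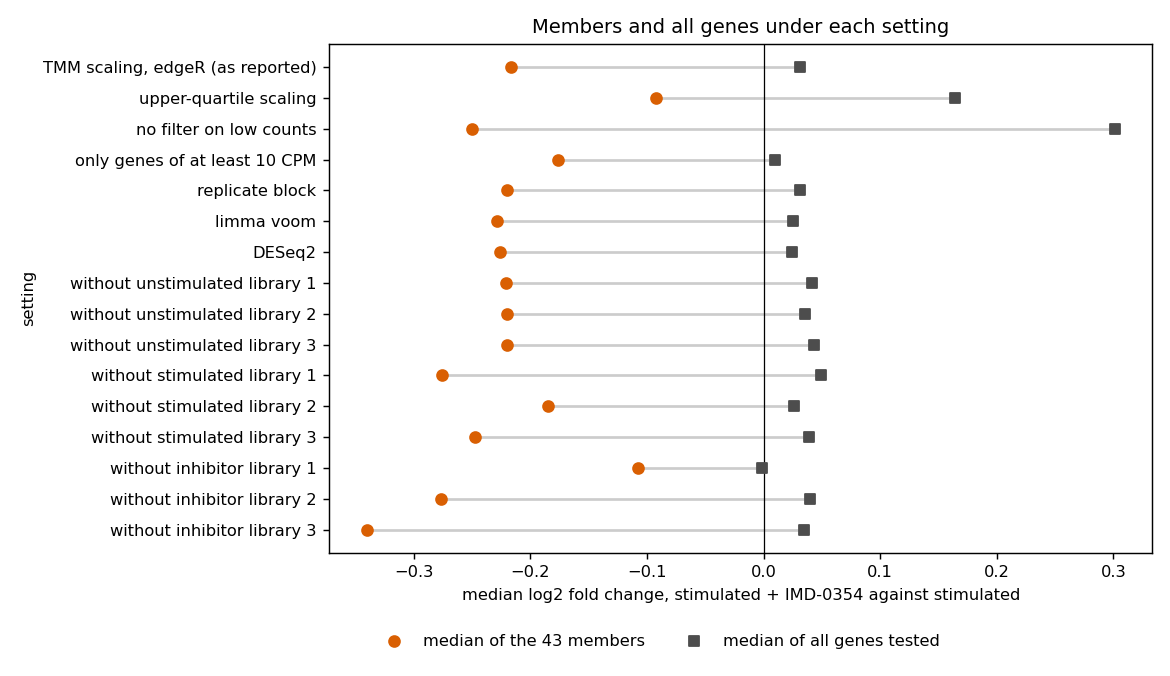
Median log2 fold change in inhibitor over stimulated cells, for the 43 genes (circles) and all genes tested (squares), under the reported fit and 15 alternative settings. The circle lies left of the square in each setting, by 0.11 to 0.55, and is nearest to it without inhibitor library 1.

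The rest of the pathway was described from lists of further genes. Of 142 further ribosome biogenesis genes tested, 113 rose and 3 fell in stimulated over unstimulated cells (median log2 fold change 0.85), and 17 rose and 42 fell in inhibitor over stimulated cells (median -0.15). Over all genes tested, 32.0% were called higher and 34.0% lower in stimulated over unstimulated cells, and 21.7% higher and 22.8% lower in inhibitor over stimulated cells. Factors that assemble snoRNA particles rose in 10 of 10 with stimulation (median 1.25) and fell in 7 of 10 with the inhibitor (median -0.49). Ruvbl1, an ATPase of that group, had 23.1, 29.9 and 31.4 CPM in the inhibitor libraries, 51.3, 66.8 and 70.3 in the stimulated ones and 15.95, 14.8 and 11.9 in the unstimulated ones. Its partner Ruvbl2 had 79.8, 103 and 106 CPM with the inhibitor, 159, 190.4 and 188 with stimulation alone and 35.3, 33.4 and 30.04 without stimulation. Both were separate in all groups, with 2.14 ± 0.17, adjusted p = 2.7e-06 and 2.45 ± 0.13, adjusted p = 1.9e-07 for stimulation, and -1.16 ± 0.17, adjusted p = 0.00039 and -0.89 ± 0.12, adjusted p = 0.00029 for the inhibitor.

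The RNA exosome and trimming list rose in 12 and fell in 1 of 14 with stimulation, beside 32.0% and 34.0% of all genes tested. With the inhibitor it fell in 7 and rose in 0, beside 22.8% and 21.7% of all genes tested. Exosc8, a ring subunit of the exosome, had 46.6, 47.3 and 53.3 CPM in the inhibitor libraries, 108, 99.2 and 95.97 in the stimulated ones and 34.3, 37.1 and 34.8 in the unstimulated ones. Inhibitor and unstimulated libraries of Exosc8 were far below the stimulated ones (1.51 ± 0.09, adjusted p = 3.6e-07 for stimulation, -1.04 ± 0.09, adjusted p = 1.3e-05 for the inhibitor). Xrn2, a nuclear exonuclease, was the gene of this list that fell with stimulation (-0.37 ± 0.07, adjusted p = 0.00075). It had 225, 218 and 223 CPM with the inhibitor, 207, 196 and 197 with stimulation alone and 268, 243 and 263 without stimulation, and was not called for the inhibitor (0.15 ± 0.07, adjusted p = 0.095).

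Large-subunit factors outside the 43 rose in 37 and fell in 1 of 50 with stimulation, and rose in 10 and fell in 4 with the inhibitor, beside 6 that rose and 15 that fell among 42 further small-subunit factors. Over all genes tested, 21.7% rose with the inhibitor, near the 10 of 50, and 22.8% fell. With stimulation 32.0% of all genes tested rose and 34.0% fell. Differences between these lists were not tested. Ccdc86, a nucleolar protein, had 31.2, 35.3 and 36.3 CPM in the inhibitor libraries, 17.5, 16.6 and 15.2 in the stimulated ones and 19.4, 16.3 and 17.4 in the unstimulated ones. Mdn1, an ATPase that removes factors from the maturing large subunit, had 578, 608 and 611 CPM with the inhibitor, 359.6, 393 and 382 with stimulation alone and 423, 378 and 465 without stimulation. Inhibitor libraries were above both other groups for each of these, and neither gene was called for stimulation (-0.11 ± 0.11, adjusted p = 0.42 and -0.16 ± 0.09, adjusted p = 0.14), though both were called lower with upper-quartile scaling (-0.33, adjusted p = 0.0269 for Ccdc86, and -0.38, adjusted p = 0.00713 for Mdn1) and with the 10 CPM filter (-0.30, adjusted p = 0.0247, and -0.35, adjusted p = 0.0029), and Mdn1 also without unstimulated library 2 (-0.23, adjusted p = 0.033). The inhibitor differences were 1.06 ± 0.12, adjusted p = 6.7e-05 and 0.66 ± 0.09, adjusted p = 0.00023, with the same call in all 15 settings. Mrto4 had 37.8, 44.4 and 49.5 CPM in the inhibitor libraries, 71.2, 78.8 and 84.6 in the stimulated ones and 19.7, 20.3 and 18.3 in the unstimulated ones, rising with stimulation (2.01 ± 0.12, adjusted p = 3.8e-07) and falling with the inhibitor (-0.83 ± 0.12, adjusted p = 0.0003). Ddx51, a helicase, had 24.5, 28.3 and 28.8 CPM with the inhibitor, 20.1, 22.3 and 20.6 with stimulation alone and 31.5, 32.9 and 30.3 without stimulation. It fell with stimulation (-0.59 ± 0.10, adjusted p = 0.00056) and rose with the inhibitor (0.37 ± 0.10, adjusted p = 0.014), a call lost in 5 of 15 settings. Rpf2, which helps to bring the 5S particle into the large subunit, had 30.04, 35.2 and 36.02 CPM in the inhibitor libraries, 47.2, 45.9 and 40.3 in the stimulated ones and 12.6, 12.5 and 10.4 in the unstimulated ones. Its groups were separate, and it rose with stimulation (1.91 ± 0.12, adjusted p = 6.9e-07) and was 1.51 ± 0.12, adjusted p = 5.5e-06 in inhibitor over unstimulated cells. The fall of Rpf2 with the inhibitor (-0.40 ± 0.12, adjusted p = 0.022) was not called with upper-quartile scaling and without stimulated library 1, stimulated library 2 or inhibitor library 1 (adjusted p = 0.0615 to 0.0745). Pno1, an assembly factor of the small subunit, had 56.5, 68.6 and 70.98 CPM with the inhibitor, 55.5, 50.9 and 52.3 with stimulation alone and 16.6, 17.5 and 16.2 without stimulation. It rose with stimulation (1.66 ± 0.11, adjusted p = 5.9e-07), and its value in inhibitor over unstimulated cells was 1.96 ± 0.11, adjusted p = 4.3e-07. Inhibitor libraries of Pno1 lay just above the stimulated ones (0.31 ± 0.10, adjusted p = 0.034), and that call was lost in 8 of the 15 settings, among them those without unstimulated library 1, any 1 of the stimulated libraries, or inhibitor library 2 or 3.

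Among 14 further RNA polymerase I genes, 8 rose and 1 fell with stimulation, and 1 rose and 4 fell with the inhibitor. With stimulation 32.0% of all genes tested rose and 34.0% fell, and with the inhibitor 21.7% rose and 22.8% fell. Taf1a, a subunit of the promoter-selectivity factor of the polymerase, was the gene that rose with the inhibitor. Its level was 31.4, 31.3 and 29.8 CPM in the inhibitor libraries, 8.58, 9.99 and 9.59 in the stimulated ones and 12.1, 9.93 and 10.4 in the unstimulated ones. The inhibitor libraries of Taf1a were 3.28-fold above the stimulated ones (log2 1.72 ± 0.12, adjusted p = 4.6e-06), with log2 values of 1.65 to 1.85 over the alternatives, while stimulated and unstimulated libraries overlapped in part (-0.20 ± 0.12, adjusted p = 0.15). Taf1a was called lower for stimulation with upper-quartile scaling (-0.43, adjusted p = 0.0141) and with the 10 CPM filter (-0.40, adjusted p = 0.011). The other subunits of that factor took other courses. Taf1b had 26.8, 31.9 and 32.7 CPM with the inhibitor, 34.2, 30.6 and 28.1 with stimulation alone and 28.8, 27.7 and 27.2 without stimulation, with no call. Taf1c had 16.8, 22.5 and 19.9 CPM in the inhibitor libraries, 16.1, 17.3 and 18.4 in the stimulated ones and 25.3, 22.5 and 23.8 in the unstimulated ones, and fell with stimulation (-0.47 ± 0.13, adjusted p = 0.0081). Taf1d, which also hosts snoRNAs, had 231, 215 and 224 CPM with the inhibitor, 425, 301 and 295 with stimulation alone and 135, 121 and 123 without stimulation. Stimulated library 1 was the highest library for Taf1d, which rose with stimulation (1.43 ± 0.13, adjusted p = 7.3e-06) and fell with the inhibitor (-0.61 ± 0.13, adjusted p = 0.0039).

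Of the polymerase subunits outside the set, Polr1d rose with stimulation (1.06 ± 0.17, adjusted p = 0.00031) and fell with the inhibitor (-0.63 ± 0.17, adjusted p = 0.011), a call lost without stimulated library 3 (adjusted p = 0.0503). Polr2k, a small subunit common to the nuclear polymerases, had 6.59, 6.9 and 7.4 CPM in the inhibitor libraries, 22.6, 11.96 and 13.5 in the stimulated ones and 4.17, 5.15 and 4.26 in the unstimulated ones. Stimulated library 1 was far above the other libraries for Polr2k, and the gene rose with stimulation (1.82 ± 0.24, adjusted p = 7.3e-05) and fell with the inhibitor (-1.2 ± 0.23, adjusted p = 0.0021, and -0.87 without stimulated library 1). Polr2f, another common subunit, rose with stimulation (1.49 ± 0.28, adjusted p = 0.00099) and fell with the inhibitor (-0.89 ± 0.28, adjusted p = 0.025), a call lost without inhibitor library 1 and without stimulated library 2 or 3. Polr2e (1.02 ± 0.13), Polr2h (1.48 ± 0.16), Polr2l (1.38 ± 0.33) and Znrd1 (0.58 ± 0.17) rose with stimulation and were not called for the inhibitor, except Polr2e without stimulated library 1 (-0.39). Ttf1, the terminator of ribosomal DNA transcription, and the subunits Twistnb and Cd3eap were not called in either, with stimulation values of -0.09 ± 0.09, 0.14 ± 0.10 and 0.43 ± 0.19, though Ttf1 was called lower for stimulation with upper-quartile scaling (-0.31, adjusted p = 0.0169) and with the 10 CPM filter (-0.28, adjusted p = 0.0105), and Cd3eap was called for stimulation without unstimulated library 1 (0.66, adjusted p = 0.009).

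In the RNase MRP and RNase P list, 9 of 12 rose with stimulation, beside 32.0% of all genes tested. With the inhibitor 5 fell and 0 rose, beside 22.8% and 21.7% of all genes tested. The value of Rpph1, the RNA of RNase P, depended on a single library. It had 1214, 2227 and 2245 CPM in the inhibitor libraries, 16398, 3868 and 3384 in the stimulated ones and 4255, 2802 and 2896 in the unstimulated ones. Stimulated library 1 was several times above the other libraries, and the inhibitor difference was -2.06 ± 0.56, adjusted p = 0.013 with it and -0.94 (adjusted p = 0.027) without it. Rmrp, the RNA of RNase MRP, had 844, 2076 and 2442 CPM with the inhibitor, 2212, 2105 and 2528 with stimulation alone and 3786, 1648 and 1773 without stimulation. Its groups overlapped, with no call for stimulation (-0.07 ± 0.39, adjusted p = 0.87), for the inhibitor (-0.35 ± 0.39, adjusted p = 0.5) or in inhibitor over unstimulated cells (-0.43 ± 0.39, adjusted p = 0.39), except lower in this last comparison with no filter on low counts (-0.44, adjusted p = 0.0194).

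The ribosomal proteins themselves gave a further comparison. Of 78 cytosolic ribosomal protein genes tested, 55 rose and 0 fell with stimulation, beside 32.0% and 34.0% of all genes tested. The median log2 fold change of the 78 was 0.74. With the inhibitor 1 rose and 8 fell (median -0.02), beside 21.7% and 22.8% of all genes tested. Mitochondrial ribosomal proteins rose in 75 of 77 with stimulation (median 1.27) and fell in 54 of 77 with the inhibitor (median -0.47). Beside these stand the medians of the 43 nucleolar genes, 1.25 for stimulation and -0.22 for the inhibitor. Many cytosolic ribosomal protein genes have near-identical pseudogenes, so that their counts are uncertain.

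Several of the 43 genes host snoRNAs within their bounds. The annotation placed 21 snoRNAs inside 7 of the genes (Dkc1, Gnl3, Ncl, Nop56, Nop58, Tsr1 and Wdr43). Of these, 7 had 0 counts in all libraries, and each of the 7 overlaps an exon of its host. Counts of the others were low, at most 149 in a library, and 13 passed the filter on low counts. Among the 13, Snord69, Gm24916 and Snord19, all in Gnl3, also overlap an exon of their host.

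None of the 13 was called in stimulated over unstimulated cells by edgeR, 0 had an unadjusted p under 0.05, and 0 were called by DESeq2 or limma voom. Their median log2 fold change was 0.18, with values from -0.86 to 0.67, where their hosts had 1.03 to 1.44. A difference between host and snoRNA was not tested. In inhibitor over stimulated cells 2 of 13 rose, beside 21.7% of all genes tested called higher. Snord19, in Gnl3, had 2.31, 2.35 and 2.24 CPM in the inhibitor libraries, 1.42, 1.23 and 1.14 in the stimulated ones and 1.62, 1.51 and 1.34 in the unstimulated ones, and rose by 0.86 ± 0.24 (adjusted p = 0.0135). Gm22771, in Tsr1, had 1.03, 1.92 and 1.64 CPM with the inhibitor, 0.38, 0.627 and 0.607 with stimulation alone and 1.07, 0.58 and 0.75 without stimulation, and rose by 1.5 ± 0.40 (adjusted p = 0.0118). In inhibitor over unstimulated cells 3 of 13 rose and 0 fell, beside 26.3% and 26.1% of all genes tested. These were Snord91a (1.13 ± 0.34, adjusted p = 0.0175), Snord53 (0.85 ± 0.29, adjusted p = 0.0308) and Snord19 (0.63 ± 0.23, adjusted p = 0.0461). DESeq2 called 2 and limma voom 4 in that comparison. Reads of an intron cannot be told apart from those of the snoRNA in it. Snord19 overlaps an exon of Gnl3, and the part of host reads in its counts was not tested.

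**Figure D4:**
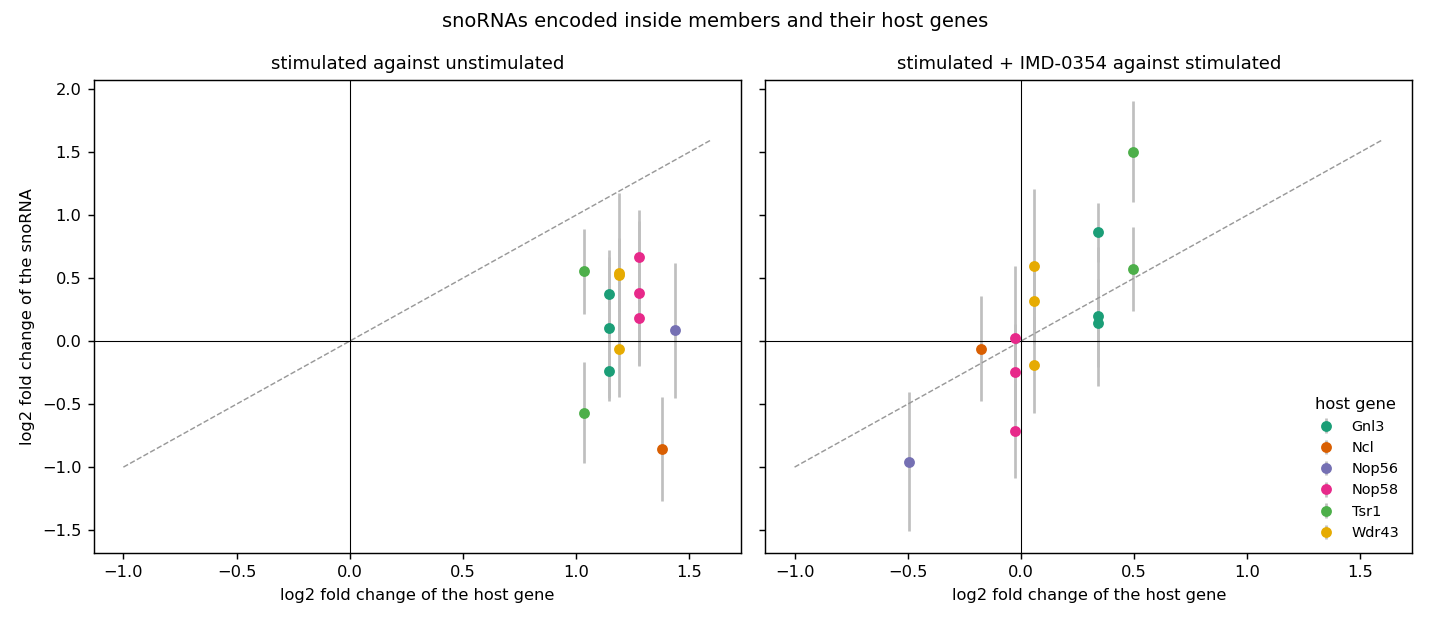
Log2 fold change of 13 snoRNAs (vertical axis, bars of 1 approximate SE) against that of the gene that hosts them (horizontal axis), for stimulated over unstimulated cells and inhibitor over stimulated cells, with the line of equal change. In the first panel all points lie below the line, with hosts at 1.03 to 1.44 and snoRNAs at -0.86 to 0.67.

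Ribosomal RNA was depleted from these libraries, and the remainder says little of its output. Reads in 2 long noncoding annotations in a stretch of chromosome 17 known to resemble ribosomal DNA, Gm26917 (chr17:39843013-39846341) and Gm42418 (chr17:39846958-39848788), took 12.2%, 17.4% and 15.7% of counts in the inhibitor libraries, 12.8%, 16.7% and 16.8% in the stimulated ones and 13.6%, 11.3% and 14.5% in the unstimulated ones. The groups overlapped, and neither annotation was called in any comparison (Gm26917 0.39, adjusted p = 0.17, for stimulation, and -0.08, adjusted p = 0.80, for the inhibitor).

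Promoter sequences of the genes were searched for the E-box CACGTG, the site class bound by MYC and related factors known to act on ribosome biogenesis genes. RefSeq windows of 300 bases (250 before and 50 after the transcript start, GRCm38.p6) were matched for 39 of the 43 genes. CACGTG, its own reverse complement, was in 8 of 39 windows (20.5%), against 7.24% of 27025 genes: Mybbp1a, Nop2, Pes1, Rrn3, Tsr1, Utp18, Utp20 and Wdr43. An ETS-type motif, CCGGAAGT on either strand, was in 9 of 39 (23.1%), against 4.0% of genes. The NF-kB consensus, searched on both strands, was in 3 of 39 (7.69%: Dkc1, Ebna1bp2 and Tsr1), against 8.18% of genes. The window of a member was the one nearest its annotated start, while for all genes the first window listed was taken. The 27025 genes were not limited to those tested for expression here, whereas all 39 members were tested. The part of this difference in the shares was not tested. Over all 32851 windows the shares were 7.15% for CACGTG, 3.89% for the ETS-type motif and 8.46% for the NF-kB consensus. No 2 of these motifs shared bases in a member's window. The windows differed in base content, with a median GC of 59.3% over the 39 and 52.7% over all genes, and the part of base content in these shares was not tested.

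The E-box lies before the start in 3 of the 8, and these stretches are shown because they hold the motif outside the transcript. Each line gives the 250 bases before the start, 5′ to 3′ on the gene's strand, with CACGTG in capitals.
Nop2 (chr6:125131633-125131882, plus strand): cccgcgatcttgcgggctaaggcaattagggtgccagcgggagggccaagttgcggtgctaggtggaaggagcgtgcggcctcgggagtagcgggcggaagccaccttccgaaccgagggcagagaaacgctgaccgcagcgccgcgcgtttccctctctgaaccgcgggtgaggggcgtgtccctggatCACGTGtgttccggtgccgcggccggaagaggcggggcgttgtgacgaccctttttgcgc
Rrn3 (chr16:13780449-13780698, plus strand): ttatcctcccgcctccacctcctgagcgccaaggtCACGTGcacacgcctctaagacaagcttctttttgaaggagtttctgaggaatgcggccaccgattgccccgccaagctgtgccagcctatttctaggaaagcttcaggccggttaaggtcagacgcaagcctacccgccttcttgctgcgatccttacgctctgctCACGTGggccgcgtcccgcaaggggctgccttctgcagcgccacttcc
Utp18 (chr11:93885767-93886016, minus strand): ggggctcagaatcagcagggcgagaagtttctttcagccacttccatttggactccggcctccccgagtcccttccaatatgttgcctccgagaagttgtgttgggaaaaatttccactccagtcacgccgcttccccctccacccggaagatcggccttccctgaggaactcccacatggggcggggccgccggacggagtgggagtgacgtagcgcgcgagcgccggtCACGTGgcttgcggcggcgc
The E-box begins 60 bases before the start in Nop2, 215 and 48 bases before it in Rrn3, and 20 bases before it in Utp18. Genes with the E-box had a median log2 fold change of 1.11 for stimulation and 0.01 for the inhibitor, and those without it had 1.26 and -0.28. For the ETS-type motif these medians were 1.41 and -0.36 with it and 1.22 and -0.15 without it, and for the NF-kB consensus 1.41 and -0.04 with it and 1.25 and -0.20 without it. None of these splits was tested. A match is a run of letters and not evidence of binding, and nothing on binding was measured here.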

How the data were processed

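Total RNA was sequenced in 9 libraries of splenic CD3+ T cells, 3 in each of 3 groups, after ribosomal RNA depletion with a stranded kit, per the labels' protocols. The deposited table held whole-number counts of reads for 49671 genes, with no normalization visible in them and 0 columns unused. STAR 2.7.1a, featureCounts and the mm10 build were used by the authors, per the submitters' processing notes. Not given in the sources used here are the strand setting, the mates counted and the annotation release. Even numbers made up 70.6% to 78.5% of the counts between 1 and 10, so that a fragment may often stand as a pair of counts and precision from counting alone is not given.

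Of the identifiers, 49412 were in GENCODE M21 (mm10), used for symbols and positions. Genes passing filterByExpr (18374, all 43 members among them) were fitted with edgeR 4.0.16 (R 4.3.3): TMM scaling, quasi-likelihood tests, the group as the only term over 9 libraries, 6 residual degrees of freedom, two-sided tests, and p-values adjusted by Benjamini-Hochberg across these genes (threshold 0.05). A gene "rose" or "fell" where it passed. CPM values carry the TMM factors. The SE of a log2 fold change is approximate, its size over the square root of F. No libraries of a group agreed within sampling noise (chi-square divided by its degrees of freedom was 32.7 to 132). The labels name biological replicates but no separate animals, and the p-values therefore reflect only how these samples vary, in part perhaps technically. The fit was tested on simulated counts with changes in the stimulated group only. That test covered neither the choice of scaling nor the inhibitor comparisons.

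The members and lists were chosen with earlier results of these data known. Values per library were given for members by a rule: all RNA polymerase I and X-linked members, the extremes of each role, and members not called or called against the majority, to which the remaining members were added. Further pathway genes were named for the 3 highest and 3 lowest log2 fold changes per comparison among those of at least 10 CPM, with all RNA polymerase I ones. Some names of the further list were not matched and are not analysed here. Alternatives were DESeq2 1.42.0, limma 3.58.1 voom, upper-quartile scaling, no filter, a filter of 10 CPM, a replicate block and leaving out each library.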

Additional observations from a re-analysis of the deposited data

How the results depend on the processing

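Direction and call were recomputed in 15 settings. Of 1590 recomputed called values of the 43 genes, 1544 kept their call and direction and 46 lost the call, while 9 uncalled values gained one and 34 changed sign. Between 41 and 42 of the 43 genes rose in stimulated over unstimulated and in inhibitor over unstimulated cells in every setting. In inhibitor over stimulated cells, 12 to 19 fell and 2 to 4 rose when single libraries were left out, against 18 and 4 with all libraries. With upper-quartile scaling 10 fell, with no filter on low counts 2 rose, and with genes of at least 10 CPM 1 gene, Ubtf, fell in inhibitor over unstimulated cells.

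Counts that moved by over 1.5 times were these. Upper-quartile scaling gave 26 higher and 25 lower of the further pathway genes in inhibitor over stimulated cells, 9 lower in stimulated over unstimulated cells and 3 lower in inhibitor over unstimulated cells. With no filter, 10 of them were higher in inhibitor over stimulated cells and 2 lower in inhibitor over unstimulated cells. With genes of at least 10 CPM, 9 were lower in stimulated and 6 in inhibitor cells, each over unstimulated cells, and DESeq2 gave 3 lower in the second of these. That filter also reduced the genes tested: over all genes 3458 were higher and 3490 lower in stimulated over unstimulated cells, and 2934 higher and 2918 lower in inhibitor over unstimulated cells. Leaving out single libraries gave, for the further genes, 3 to 5 lower in stimulated over unstimulated cells, 8 to 19 higher in inhibitor over stimulated cells and 0 to 2 lower in inhibitor over unstimulated cells. The cause of these moves was not tested.

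Signs changed only for log2 fold changes that were not called. In inhibitor over stimulated cells, upper-quartile scaling gave Bysl 0.0932, Ddx10 0.1163, Ebna1bp2 0.0799, Mybbp1a 0.0865, Nop14 0.1141, Nop58 0.1048, Polr1b 0.0464, Ubtf 0.0102, Utp14a 0.0954 and Utp15 0.0573, in step with the shift of all genes from 0.03 to 0.16. The filter of 10 CPM gave Bysl 0.0073, Ddx10 0.0285, Mybbp1a 0.0002, Nop14 0.0272, Nop58 0.0175 and Utp14a 0.009. Leaving out single libraries gave Bysl -0.1406 to 0.0385, Ddx10 -0.0654 to 0.0174, Ebna1bp2 -0.2417 to 0.1702, Mybbp1a -0.1058 to 0.0367, Nop14 -0.0614 to 0.0412, Nop58 -0.0837 to 0.0025, Polr1b -0.196 to 0.0111 and Utp14a -0.0929 to 0.05. Ubtf in stimulated over unstimulated cells had -0.1819 with upper-quartile scaling, -0.1494 with genes of at least 10 CPM, -0.0041 with DESeq2 and -0.017 to 0.0932 without single libraries, and in inhibitor over unstimulated cells -0.1291 to 0.0053 without single libraries.

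The replicate numbers in the labels were not taken as pairs. Same-numbered libraries had correlated deviations of 0.0782 to 0.144 between inhibitor and stimulated cells, -0.0148 to 0.00469 between stimulated and unstimulated cells and -0.194 to -0.0388 between inhibitor and unstimulated cells, and each library correlated best with its own number in 6 of 6, 2 of 6 and 0 of 6 cases. With the replicate number as a block, 42 members rose in each comparison with unstimulated cells, and 4 rose and 17 fell in inhibitor over stimulated cells, with no call for Nop10. Over all genes the block gave 3642 higher and 3940 lower in that comparison.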
